A study of Mus musculus with 4 samples.

Results

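The clustered protocadherins are the genes of the alpha, beta and gamma protocadherin clusters, and they were taken as every row of the count table whose GENCODE vM21 symbol begins with Pcdha, Pcdhb or Pcdhg on mouse chromosome 18. The rule found 57 of the 21936 genes in the table, namely 14 alpha, 22 beta and 21 gamma genes. On GRCm38 all lie on the plus strand of chromosome 18, the alpha genes from 36930184 to 37187661, the beta genes from 37264938 to 37524479 and the gamma genes from 37661793 to 37841873. Pcdhgb8, which the annotation lists as a polymorphic pseudogene, was not analysed here. RNA was sequenced from immunoprecipitates of TSSK2, a testis-specific serine kinase that marks cytoplasmic granules of elongating spermatids, and from precipitates with mouse IgG as the control. The starting material was a filtered suspension of germ cells from testes of adult C57BL/6 mice over 8 weeks of age, cross-linked with paraformaldehyde, and all samples came from the pellet fraction of the lysate. There were 2 TSSK2-IP and 2 control IgG-IP samples, which the labels separate by antibody alone. RNA held by TSSK2 itself and RNA held elsewhere in the precipitated granules cannot be told apart, and no sequenced input lysate was analysed here.

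Clustered protocadherins are cadherin-like cell adhesion proteins that recognise identical molecules on the opposing membrane, and they are best known for giving neurons individual surface identities. In the alpha and gamma clusters each variable first exon has its own promoter and is spliced to constant exons shared by the whole cluster, whereas each beta gene encodes a complete protein without shared exons. CTCF, cohesin and DNA methylation take part in choosing the promoters of the variable genes, while the C-type genes at the end of the alpha and gamma clusters are known for more uniform use among neurons. The C-type genes are Pcdhac1, Pcdhac2, Pcdhgc3, Pcdhgc4 and Pcdhgc5, and all others are variable.

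The annotated structure of the genes bears on their counts. All 14 alpha and 21 gamma genes share exonic bases with other genes, and only a part of each was unique to 1 gene, a median of 2479.5 of 5356 bases for alpha and 2637 of 4882 for gamma. Of the 22 beta genes, 18 have a single exon and 2, Pcdhb21 and Pcdhb22, overlap each other. Counts of alpha and gamma genes can hold reads from the shared exons or lack them, depending on counting settings that are not given in the sources used here. Neighbouring genes of a cluster may therefore not be fully separate measurements. Pcdha4 had the shortest unique sequence, 494 bases. The 3 readthrough genes Gm42416, Gm37013 and Gm37388, whose exons hold no unique base, had 0 counts in all 4 libraries. No read from their shared exons was thus counted for them, and whether such reads were counted for the protocadherins was not tested. An annotated gene on the opposite strand overlaps exons of 4 alpha, 1 beta and 8 gamma genes, and whether their reads were told apart by strand was not tested. In Pcdhga10 all 2613 bases unique on its own strand are overlapped in this way. It had 137 and 76 counts in TSSK2-IP and 9 and 25 in control IgG-IP.

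The libraries held between 3938922 and 9858941 counts. The 2 TSSK2-IP libraries were close to each other, with an SD of the log2 difference of 0.23 over 6891 abundant genes, whereas the same SD was 0.92 between the control IgG-IP libraries, so most of the spread between replicates lay in the control pair. Summed levels of the 6 spermatid markers ranged from 2764 to 5055 normalized CPM (counts scaled to a common library total after TMM scaling) and were highest in control IgG-IP replicate 1. The markers of Sertoli, Leydig, macrophage, and peritubular or endothelial cells summed to between 7.33 and 35.4 CPM per list in any library, and Insl3 was at 0 in control IgG-IP replicate 1. Neuronal markers summed to between 137 and 248 CPM and were led by Map2, while the neuronal splicing factor Rbfox3 had at most 28 counts. The Sertoli and Leydig sums were lowest in control IgG-IP replicate 1, at 7.33 and 14.4 CPM, as were the protocadherins below, but in control IgG-IP replicate 2 they were 22.3 and 33.3 CPM, close to the 16.4 to 27.0 and 34.6 to 35.4 CPM of TSSK2-IP. Macrophage and peritubular or endothelial sums were also lowest in control IgG-IP replicate 1, at 12.8 and 15.8 CPM. In control IgG-IP replicate 2 they were 20.7 and 31.9 CPM, against 13.5 to 21.9 and 20.2 to 21.4 CPM in TSSK2-IP. None of the marker genes tested passed the thresholds in either direction, where 0.693% of all genes tested passed higher and 0% lower.

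TSSK2-IP held more alpha and gamma protocadherin RNA than the controls did, and the alpha cluster had the larger changes. Of the 57 genes, 43 had enough counts to be tested, all 14 alpha, all 21 gamma and 8 of the 22 beta genes. With thresholds of 1 for the log2 fold change and 0.05 for the adjusted p (quasi-likelihood test of edgeR, adjusted by Benjamini-Hochberg over 14722 genes), 18 rose, 11 alpha and 7 gamma, against 0.693% of all genes tested. None of the 43 fell past these thresholds, where the background was 0%, and at an unadjusted p under 0.05 the numbers were 30 higher and 0 lower, with 8.34% and 4.89% of all genes. The median log2 fold change was 3.55 over the alpha genes and 2.43 over the gamma genes, compared with -0.02 over all genes tested. The precipitates were made from lysate, so these changes compare RNA recovered with each antibody and are not levels per cell. Whether the mix of cells behind the lysates differed was not tested. Of the 43 genes tested 42 had a fitted change above 0, beside 49.2% of all genes. Without a filter on low counts, which a gene can pass through its high group alone, the median over all 57 genes was 1.98 and 50 had a fitted change above 0. In 28 of the genes tested, 13 alpha, 1 beta and 14 gamma, the lower TSSK2-IP library exceeded the higher control library 2-fold or more, as in 4.01% of all genes tested. The number of calls depended on the scaling and on single libraries. With upper-quartile normalization 0 protocadherins passed, beside 0.136% of all genes, and the 18 had adjusted p between 0.0553 and 0.221 and log2 fold changes between 2.31 and 4.07. Without TSSK2-IP replicate 1, 7 protocadherins passed (0.137% of all genes), 6 of them among the 18, and without TSSK2-IP replicate 2 it was 13 (0.202%), 11 of them among the 18. DESeq2 called 6 (0.197%), where its independent filtering left only 7 of the 43 with an adjusted p. Without that filtering it called 22 (1.03%). No filter on low counts and the replicate number as a block each called 27 (1.33% and 1.86%), as did the block with GC and length offsets (1.58%), whereas requiring 10 counts in every library left 18 protocadherins to test, of which Pcdha11 and Pcdhgc3 passed (0.231%).

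**Figure D1:**
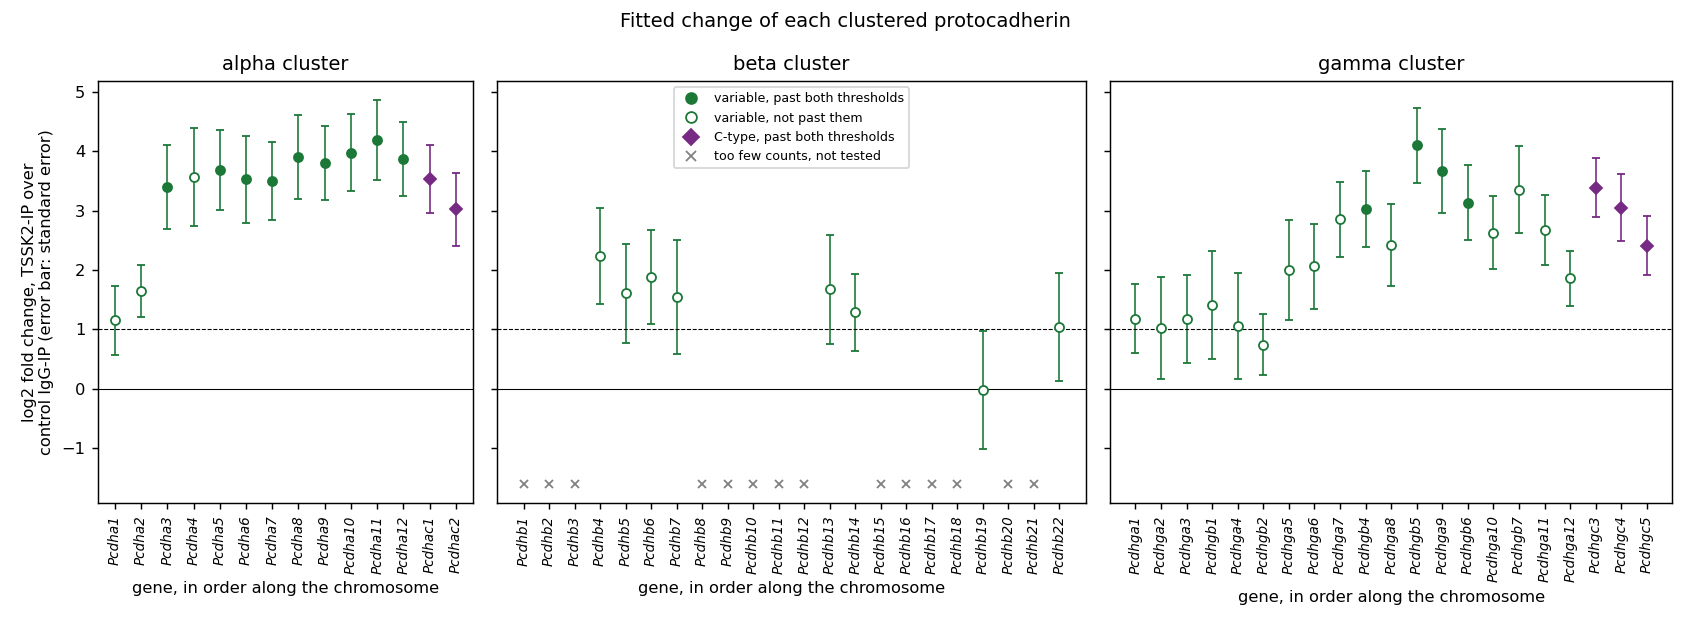
Fitted log2 fold change of TSSK2-IP over control IgG-IP (vertical axis, bars are 1 standard error) for each protocadherin in its order along the chromosome, by cluster, with the dashed line at a log2 fold change of 1. Filled symbols passed both thresholds, open ones did not, and crosses mark the beta genes that were not tested; the 9 filled alpha circles lie from Pcdha3 onward, and all 5 C-type diamonds are filled.

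Among the alpha variable genes 9 of 12 rose, beside 0.693% of all genes tested, with Pcdha1, Pcdha2 and Pcdha4 as the exceptions. Pcdha11 had the largest change, with levels of 202 and 186 CPM in TSSK2-IP and 3.59 and 17.9 CPM in control IgG-IP. Its lower TSSK2-IP library was thus 10.4-fold above its higher control library, and the log2 fold change was 4.19 ± 0.67 (SE, adjusted p = 0.0114). Pcdha10 was at 134 and 127 CPM in TSSK2-IP and at 2.65 and 14.2 CPM in the controls. Pcdha12, the last variable alpha gene, was at 130 and 108 CPM against 2.81 and 13.8 CPM. The fitted changes of both, 3.98 ± 0.65 and 3.87 ± 0.63, had the same adjusted p of 0.0123, and for neither did the groups overlap, as was so with TSSK2-IP higher for all 14 alpha genes and for 27.3% of all genes tested. Pcdha3 had the highest TSSK2-IP level of the family per kb of all exons, with 219 and 176 CPM in TSSK2-IP and 4.84 and 33.1 CPM in control IgG-IP. Its change of 3.40 ± 0.71 passed with an adjusted p of 0.0454, near the threshold. The other called variable genes, Pcdha5 to Pcdha9, had log2 fold changes of at least 3.50, the value of Pcdha7.

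The first 2 alpha genes had the smallest fitted changes of the cluster. Pcdha1, at the 5′ end, had 19.1 and 16.4 CPM in TSSK2-IP and 2.96 and 13.3 CPM in control IgG-IP. The groups did not overlap, but the difference was only 1.15 ± 0.58 on the log2 scale with an adjusted p of 0.402. Pcdha2 was at 160 and 139 CPM in TSSK2-IP but at 48.5 and 47.1 CPM in the controls, and its mean control level per kb was the highest of the family. Its log2 fold change of 1.64 ± 0.44 did not pass (adjusted p = 0.142). Pcdha4 had 206 and 202 counts in TSSK2-IP and 1 and 31 counts in control IgG-IP, and its log2 fold change of 3.57 ± 0.82 was as large as that of its neighbours but missed the threshold (adjusted p = 0.0730).

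All 5 C-type genes rose, against 13 of the 30 variable alpha and gamma genes and 0.693% of all genes tested. The median log2 fold changes of the C-type and these variable genes were close, at 3.05 and 2.94. The difference between the shares was not tested. Pcdhac1 had 89.1 and 70.2 CPM in TSSK2-IP and 2.81 and 11.3 CPM in control IgG-IP, a log2 fold change of 3.53 ± 0.57 (adjusted p = 0.0123). Pcdhac2, known for its role in spacing the axons of serotonergic neurons, had 40.4 and 26.4 CPM against 1.40 and 7.12 CPM and changed by 3.02 ± 0.61 (adjusted p = 0.0375). In both genes each TSSK2-IP library was well above each control library, by at least 6.24-fold for Pcdhac1 and 3.71-fold for Pcdhac2. Pcdhgc3, which can inhibit Wnt signalling through Axin1, had the smallest p of the 43 genes tested, with 33.0 and 30.4 CPM in TSSK2-IP and 2.03 and 4.14 CPM in control IgG-IP. The lower TSSK2-IP value was 7.36-fold above the higher control value, and the log2 fold change was 3.39 ± 0.49 (adjusted p = 0.00672). Pcdhgc4, needed for the survival of cortical interneurons, had 18.7 and 17.3 CPM against 1.25 and 3.22 CPM and a log2 fold change of 3.05 ± 0.56 (adjusted p = 0.0236). Pcdhgc5 had 32.5 and 29.1 CPM against 3.28 and 8.50 CPM, and its change of 2.41 ± 0.50 was the smallest of the C-type genes (adjusted p = 0.0420). In none of the 5 did the groups overlap, where the background was 27.3% of all genes tested.

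The variable gamma genes that rose all lay in the middle of the cluster. Of the 12 gamma A genes 1 rose, Pcdhga9, and of the 6 gamma B genes 3 rose, Pcdhgb4, Pcdhgb5 and Pcdhgb6. The share over all genes tested was 0.693%. Median log2 fold changes were 2.03 over gamma A and 3.08 over gamma B. Pcdhgb5 had 66.5 and 61.5 CPM in TSSK2-IP and 1.09 and 6.66 CPM in control IgG-IP. It had the highest TSSK2-IP level per kb and the largest change of the gamma cluster, 4.11 ± 0.63 (adjusted p = 0.00900). Pcdhga9 followed with 50.2 and 38.1 CPM against 0.624 and 6.66 CPM and a log2 fold change of 3.67 ± 0.70 (adjusted p = 0.0271). Pcdhgb6 was at 32.1 and 24.2 CPM against 0.936 and 5.74 CPM. Pcdhgb4 was at 36.5 and 29.5 CPM against 1.09 and 7.35 CPM, and its adjusted p of 0.0486 was the largest among the genes that passed. Just outside the threshold were Pcdhga11, Pcdhgb7 and Pcdhga7, with adjusted p of 0.0569, 0.0595 and 0.0606 and log2 fold changes of 2.67, 3.36 and 2.85. Pcdhga11 was at 20.5 and 23.6 CPM in TSSK2-IP against 1.40 and 5.74 CPM in the controls. Pcdhgb7, the last gamma B gene, was at 27.0 and 20.2 CPM against 0.312 and 4.60 CPM, and Pcdhga7 at 31.1 and 35.2 CPM against 1.25 and 8.27 CPM. The groups of these 3 genes did not overlap.

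At the 5′ end of the gamma cluster, Pcdhga1 had 7.46 and 8.94 CPM in TSSK2-IP and 3.12 and 4.14 CPM in control IgG-IP, a log2 fold change of 1.18 ± 0.58 (adjusted p = 0.391). Pcdhgb1 had 8.50 and 7.04 CPM against 0.156 and 5.97 CPM, where the lower control value is a single count. The groups did not overlap in 20 of the 21 gamma genes, against 27.3% of all genes tested. Pcdhgb2 was the exception, with 12.6 and 21.5 CPM in TSSK2-IP and 5.93 and 14.7 CPM in control IgG-IP, and it had the smallest fitted gamma change, 0.74 ± 0.51. Pcdhga12, the last variable gamma gene, had 60.5 and 58.2 CPM against 23.2 and 9.19 CPM. Unlike the other gamma genes it was higher in control IgG-IP replicate 1 than in replicate 2, and its change of 1.86 ± 0.47 did not pass (adjusted p = 0.110).

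The beta genes had few counts in any library, at most 41, and 0 beta genes passed the thresholds with edgeR on all 4 libraries. None of the 8 tested had an adjusted p in DESeq2 with its independent filtering, and without that filtering 0 passed. At an unadjusted p under 0.05 in edgeR, 2 of the 8 were higher, beside 8.34% of all genes tested. Pcdhb4 had 27 and 30 counts in TSSK2-IP and 4 and 8 counts in control IgG-IP, with the largest fitted change of the beta genes, 2.24 ± 0.82 (adjusted p = 0.283). Pcdhb6 had 24 and 36 counts against 5 and 11 counts. Pcdhb5 had 31 and 22 counts against 4 and 13. These 3 neighbours were higher in both TSSK2-IP libraries than in either control once scaled to library size, and their adjusted p of 0.283, 0.340 and 0.412 did not pass. Pcdhb7 had 14 and 19 counts against 3 and 8, Pcdhb13 14 and 33 against 3 and 11, and Pcdhb22 14 and 17 against 5 and 10. Pcdhb14, with 28 and 41 counts against 14 and 15, had a log2 fold change of 1.28 ± 0.65 (adjusted p = 0.401). For these 7 genes the groups did not overlap once scaled to library size, where the background was 27.3%. A gene can pass the filter on low counts through TSSK2-IP alone. This count and that at an unadjusted p under 0.05 can therefore lean toward TSSK2-IP. Most of the 14 beta genes not tested did overlap. Pcdhb19 had 12 and 5 counts in TSSK2-IP and 8 and 10 in control IgG-IP and overlapped between the groups (log2 fold change -0.03 ± 1.00). Pcdhb1, the first beta gene, was among the 14 not tested, with 6 and 4 counts against 1 and 17. The median log2 fold change was 1.58 over the 8 genes tested but 0.71 over all 22 beta genes without the filter, of which 15 were above 0, so the tested genes were the upper part of the cluster. A change in most beta genes was therefore not detectable at this depth, and its absence was not shown.

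Levels were compared between genes per kb of unique exonic sequence, in CPM per kb. In TSSK2-IP the median level was 63.1 over the alpha variable genes, 8.98 over gamma A, 9.14 over gamma B, 6.69 over the gamma C-type genes and 0.414 over the beta genes. In control IgG-IP the same medians were 5.32, 1.37, 1.17, 0.912 and 0.327. Dividing by all exons instead gave TSSK2-IP medians of 26.8 for alpha variable, 4.97 for gamma A, 5.34 for gamma B, 4.04 for gamma C-type and 0.414 for beta, so the alpha variable median stayed above those of gamma and these above beta whichever length was used, while gamma A and B stayed close. Within the alpha cluster of the TSSK2-IP libraries, the mean level was 7.12 CPM per kb for Pcdha1 and 59.8 for Pcdha2, lay between 66.4 and 82.1 from Pcdha3 to Pcdha8, between 42.1 and 52.2 from Pcdha9 to Pcdha12, and was 31.1 for Pcdhac1 and 11.0 for Pcdhac2. Pcdha4, at 82.1, had the highest value, but over all its exons its value was 7.03, below every alpha variable gene except Pcdha1, so its place in the order rests on its short unique sequence.

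**Figure D2:**
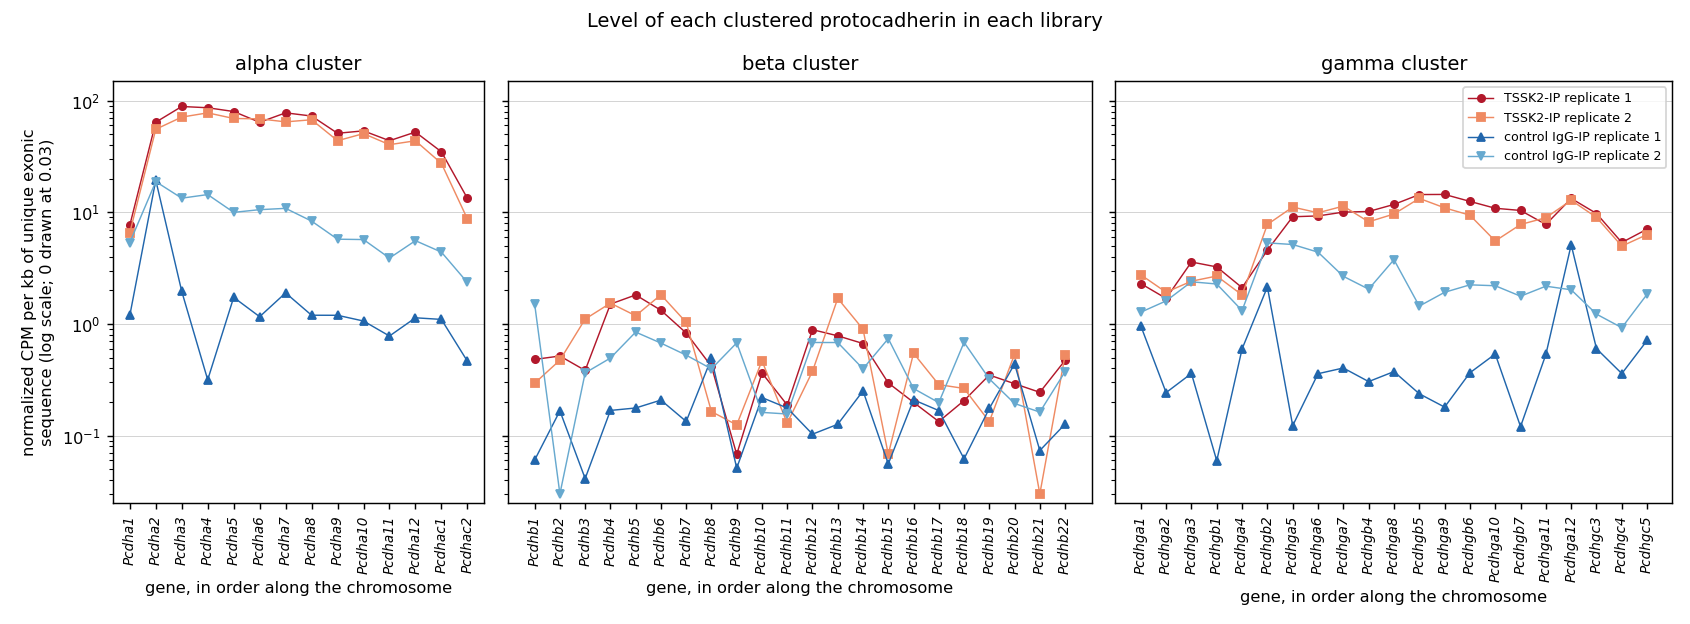
Normalized CPM per kb of unique exonic sequence (log scale, zeros drawn at 0.03) of each gene in its order along the chromosome, with 1 line per library. The TSSK2-IP lines run together and above both control lines across the alpha genes and the later gamma genes, the control lines lie apart from each other, and all 4 lines cross in the beta cluster.

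Along the gamma cluster, the first 5 genes, Pcdhga1 to Pcdhga4 with Pcdhgb1, had mean TSSK2-IP levels of 1.81 CPM per kb (Pcdhga2) or more, with Pcdhgb1 at 2.96 and Pcdhga3 just above it, and Pcdhgb2 had 6.18. From Pcdhga5 to Pcdhga12 the levels were between 8.20 and 13.9, and the C-type genes had 9.38, 5.17 and 6.69 in the order Pcdhgc3, Pcdhgc4 and Pcdhgc5. This grouping was read from the values. Across the 18 variable gamma genes Spearman's rho was 0.67 between order and TSSK2-IP level and 0.69 between order and log2 fold change, and it was 0.11 between order and control level. Across the 12 variable alpha genes rho was 0.88 between order and log2 fold change but -0.33 between order and TSSK2-IP level and -0.58 between order and control level. These values describe the genes, which share libraries, exons and their position, and are not independent replicates. The order of the genes was similar in both TSSK2-IP libraries, with a rho between their CPM values of 0.97 over 14 alpha, 0.91 over 21 gamma and 0.73 over 22 beta genes. Between the control libraries the corresponding values were 0.75, 0.09 and -0.12. Control IgG-IP replicate 2 had an alpha profile like that of TSSK2-IP at a lower level, with a rho of 0.84 against the mean TSSK2-IP level per kb, and that of replicate 1 was 0.36.

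Sums over each cluster had the same order. The alpha genes together had 1844 and 1621 CPM in TSSK2-IP and 86.4 and 271 CPM in control IgG-IP. The gamma genes had 560 and 512 CPM against 51.8 and 147 CPM, and the beta genes 50.0 and 56.5 CPM against 15.8 and 40.9 CPM. For alpha and gamma the lower TSSK2-IP sum was 5.99-fold and 3.48-fold above the higher control sum, and for beta it was 1.22-fold above. Ratios taken within a library do not depend on the scaling between libraries. Alpha over beta was 36.9 and 28.7 in TSSK2-IP and 5.49 and 6.62 in control IgG-IP, and alpha over gamma was 3.30 and 3.17 against 1.67 and 1.84. Gamma over beta was 11.2 and 9.05 against 3.29 and 3.60. In all 3 ratios the groups did not overlap, and with 2 libraries a group the exact two-sided permutation test over the 6 arrangements gave p = 0.333, the smallest it can give. The C-type over the variable genes of both clusters was 0.0976 and 0.0886 in TSSK2-IP and 0.0845 and 0.0893 in control IgG-IP, so here the groups overlapped (exact permutation test, two-sided, p = 0.667). Within the alpha cluster the same ratio was 0.0756 and 0.0634 against 0.0512 and 0.0729, which also overlapped. The gamma C-type genes differed by what they were set against. Over gamma A they were 0.288 and 0.284 in TSSK2-IP and 0.183 and 0.184 in control IgG-IP, and over the alpha variable genes 0.0491 and 0.0504 against 0.0797 and 0.0628. Neither ratio overlapped between groups, and each had an exact two-sided permutation p of 0.333.

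**Figure D3:**
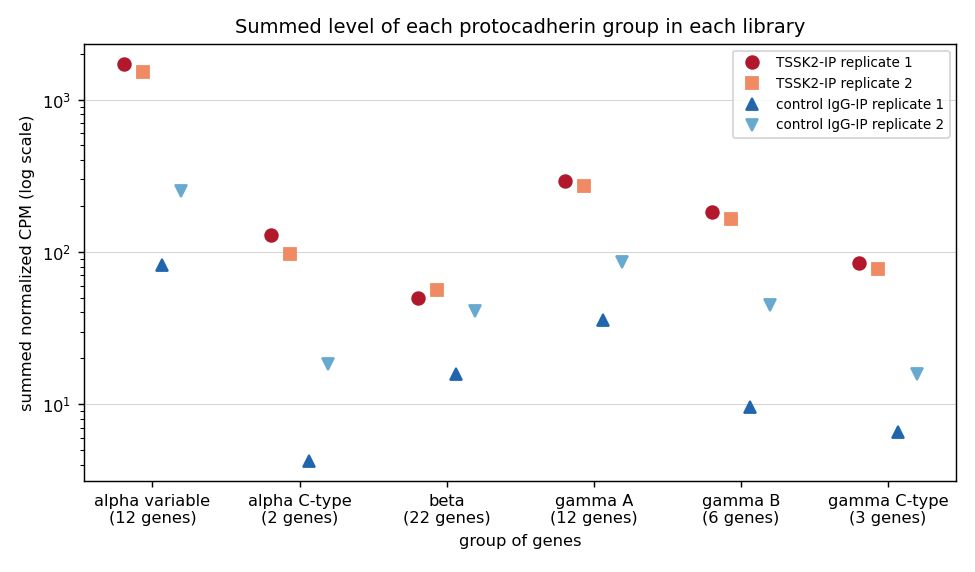
Summed normalized CPM (log scale) of the 6 groups of protocadherins in each of the 4 libraries. Both TSSK2-IP points lie above both control points in every group, the distance is smallest for the 22 beta genes, and the point of control IgG-IP replicate 2 lies above that of replicate 1 in each group.

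The size of the changes depended on which control library was used. Control IgG-IP replicate 2 had more protocadherin RNA than replicate 1 in 41 of the 43 genes tested, with a median log2 difference of 2.04, compared with 0.15 over all genes tested. It was at least 2-fold higher in 36 of them. Over all 14722 genes tested, replicate 2 was higher in 7983 and at least 2-fold higher in 3495. The exceptions among the protocadherins were Pcdha2 and Pcdhga12, which were higher in replicate 1. Against replicate 2 alone, the median log2 fold change was 2.82 over alpha, 1.94 over gamma and 0.90 over the tested beta genes, and against replicate 1 alone it was 5.30, 3.88 and 2.75. The fitted change of Pcdha1 was 0.46 without replicate 1 and 2.50 without replicate 2, and that of Pcdhgb1 was 0.43 and 5.38. Pcdhga12 moved the other way, from 2.74 without replicate 1 to 1.28 without replicate 2. The C-type genes lay between 1.91 and 2.99 without replicate 1 and between 3.16 and 4.74 without replicate 2. All 18 genes passed in both fits, which called 28 and 41 protocadherins where the background was 5.38% and 17.9%, and the 7 beta genes called in any setting were called only without replicate 2. With 1 control library the p-values rest on the spread of the TSSK2-IP pair.

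**Figure D4:**
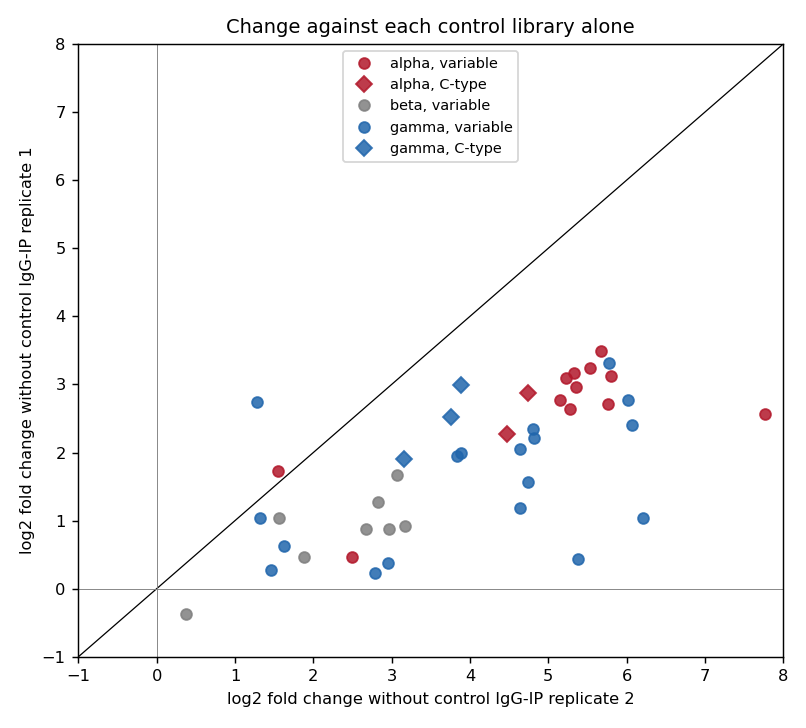
Log2 fold change of the tested protocadherins against control IgG-IP replicate 1 alone (horizontal axis, replicate 2 left out) and against replicate 2 alone (vertical axis, replicate 1 left out), with the line of equal values. Nearly every point lies below the line, and Pcdha2 and Pcdhga12 are the 2 points above it.

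Genes beside the clusters and protocadherins elsewhere in the genome did not pass the thresholds, which 0.693% of all genes tested passed higher and 0% lower. Before adjustment the shares of all genes were 8.34% and 4.89%. For lists of this size, 0 passing is near the share over all genes and does not set them apart. Of 12 protocadherins outside the clusters, 8 were tested, 0 passed (edgeR's quasi-likelihood test, 1 higher and 0 lower before adjustment at 0.05) and their median log2 fold change was -0.59. Pcdh9 had the smallest p, with 16.6 and 23.8 CPM in TSSK2-IP and 6.40 and 12.9 CPM in control IgG-IP and an adjusted p of 0.354. Among 31 coding genes between the clusters or within 500 kb of them, 28 were tested, 0 passed (1 higher and 2 lower before adjustment) and their median was 0.03. Pcdh1 and Pcdh12 belong to both of these lists. Slc25a2, a mitochondrial ornithine carrier gene between the beta and gamma clusters, had 23.0 and 17.5 CPM against 24.7 and 15.2 CPM, a log2 fold change of 0.02 ± 0.42. Its neighbour Taf7, a subunit of the general transcription factor TFIID, had 23.8 and 41.1 CPM against 5.15 and 24.4 CPM, and its change of 1.16 ± 0.58 did not pass (adjusted p = 0.401). Zmat2 and Diaph1, the nearest coding genes outside the clusters, had log2 fold changes of 0.33 and 0.37. Of 1183 coding genes outside the clusters with a single exon, as most beta genes have, 343 were tested and 4 passed, with a median of 0.14. Median GC content was 47.3% for alpha, 45.9% for beta and 52.4% for gamma genes, beside 49.0% for genes tested, and a fit with GC and length offsets called 16 protocadherins (0.632% of all genes), without Pcdha3 and Pcdha6, whose log2 fold changes were 3.36 and 3.49 in that fit beside 3.40 and 3.53, with an adjusted p of 0.0518 for both.

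Transcripts of proteins that act on or with the clustered protocadherins were also listed. Beside their counts, 0.693% of all genes tested passed higher and 0% lower, and 8.34% and 4.89% did before adjustment. Of 12 regulators of the clusters, among them Ctcf, the cohesin subunit Rad21 and the silencing factor Smchd1, all were tested and 0 passed (edgeR's quasi-likelihood test, 0 higher and 1 lower before adjustment), and their median log2 fold change was -0.27. Of 20 genes of cytoplasmic partners and processing proteases, such as the WAVE complex and gamma-secretase, 19 were tested and 0 passed (2 higher and 0 lower before adjustment), and the median change was 0.00. The WAVE complex member Abi1 had the smallest p of this list, a log2 fold change of 1.41 with an adjusted p of 0.257.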

How the data were processed

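Directional RNA libraries without removal of ribosomal RNA were sequenced from 2 TSSK2-IP and 2 control IgG-IP samples. Per the submitters' processing notes the authors used Trimmomatic 0.39, STAR 2.7.10a, featureCounts 2.0.3 and GRCm38, and they deposited raw whole-number counts per gene. Strand and multiple-overlap settings of the counting are not given in the sources used here. Genes were named through GENCODE vM21, which matched 21817 of the 21936 identifiers. ENSMUSG00000007440, which GENCODE vM21 calls Pcdha11 like its neighbour, is named Pcdha10 here from its RefSeq position.

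Counts of all 4 libraries were fitted with edgeR 4.0.16 in R 4.3.3 (filterByExpr, TMM, glmQLFit, glmQLFTest, group as the only term). P-values were adjusted by Benjamini-Hochberg over 14722 genes. The model was also run on simulated counts that had the same spread in both groups, unlike these libraries. That run does not show how the model behaves with the unequal spread here. Thresholds were a log2 fold change of 1 and an adjusted p of 0.05. Standard errors were derived from the log2 fold change and its F statistic. Normalized CPM are counts scaled to a common total after TMM scaling of the library sizes, where 1 count was worth between 0.156 and 0.230 CPM. Levels per kb used exonic bases that belong to 1 gene on the same strand. How many animals a sample holds is not given in the sources used here, and the labels do not say that samples came from separate animals or cultures, so p-values measure only the spread between these samples, which may be technical. The replicates were separate libraries, since their counts differed by more than sampling noise in both groups (chi-square per degree of freedom 3.16 and 71.0).

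Alternatives were DESeq2 1.42.0, other normalizations and filters, GC and length offsets, a replicate block and leaving out each library. With 1 library left in a group, the fit takes its spread from the other group. The members and lists were chosen with earlier results of these data known. Values in every library are given for the C-type genes, the tested beta genes, and in each other subgroup the first and last gene, the 3 genes with the smallest p and the gene with the highest mean CPM; Pcdha2, Pcdha4 and Pcdhgb2 were added after their values were seen, as was the grouping of genes along the clusters. The sequences of the genes are not shown here.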

Additional observations from a re-analysis of the deposited data

How the results depend on the processing

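The 18 protocadherins that passed both thresholds became 6 with DESeq2, which left 11702 of 14722 genes without an adjusted p by its independent filtering, 22 with DESeq2 without that filtering (added after seeing the data), 0 with upper-quartile normalization, 2 of 18 tested with at least 10 counts in every library, and between 7 and 41 when 1 library was left out. In the other settings between 16 and 27 passed, and none was called lower in any setting. With DESeq2 and its filtering only 7 of the 43 protocadherins tested kept an adjusted p, so the others could not be called there. Over all genes, 102 higher calls became 29 with DESeq2, 20 with upper-quartile normalization, 283 without a filter on low counts, 29 with at least 10 counts in every library, and between 23 and 2755 when 1 library was left out, and 0 lower calls became 9 with DESeq2, 7 with DESeq2 without independent filtering, 24 without a filter, and up to 2688, from 0, when 1 library was left out. The cause of these differences was not tested. The study's co-immunoprecipitation method, to which the cross-linked samples refer, divided a lysate equally between TSSK2 and IgG beads. Which sequenced samples shared a lysate is not stated, so replicate numbers may or may not pair them. The correlation between groups of the replicate 1 minus replicate 2 differences was 0.126. It cannot decide this, since most of the spread between replicates lay in the control pair. With the replicate number as a block 27 protocadherins passed, the 18 among them, with 274 higher and 3 lower genes in all, and the replicate block with GC and length offsets gave 27 as well, with 233 higher and 1 lower. The median log2 fold change over the alpha genes was 3.55 and lay between 2.82 and 5.30 when 1 library was left out, both bounds set by the control libraries, and over the tested beta genes it was 1.58 and lay between 0.90 and 2.75. Pcdhb19, at -0.03, lay between -0.86 (without TSSK2-IP replicate 1) and 0.50 (without replicate 2) when 1 library was left out, and was 0.37 without control IgG-IP replicate 2. The median of all genes moved to -0.14 with DESeq2 or its size factors, -0.15 without a filter, and between -0.12 and 0.16 when 1 library was left out. Having 2 libraries a group limits the precision of every comparison.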
